A study of Saccharomyces cerevisiae with 16 samples.

Results

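Divergent intergenic regions lie between the starts of neighbouring genes that are transcribed away from each other, so that each region holds the promoters of both genes. They were picked from the names of the spots on a budding yeast array. A region named after an open reading frame (ORF) was taken as the one to its right, and it was kept when that ORF ran leftward, the next ORF on the arm was on the array and ran rightward, and the region did not fall among the 8 highest ORF numbers of the arm. The rule gave 1258 divergent regions out of 5267 regions with plain names and out of 13060 names on the array. The same steps gave 1310 convergent regions, which lie between gene ends, and 2467 tandem regions, which lie between a gene end and a gene start. The rule uses names and no measured value, but it was chosen with earlier results of these data known.

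In yeast, divergent promoters are often short, poor in nucleosomes and bound by transcription factors, and both genes can be controlled from them. Pol2 is the catalytic subunit of DNA polymerase epsilon, which travels with the replication fork and copies the leading strand. Rrm3 is a DNA helicase known to help forks past tightly bound protein complexes, such as those on tRNA genes, telomeres and the ribosomal DNA repeat.

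The study mapped both proteins by chromatin immunoprecipitation on 2-colour arrays of PCR products. All cells were haploid W303a yeast grown asynchronously in rich medium (YEPD) to an optical density of 0.25 and fixed with formaldehyde, and the tagged protein was recovered with a MYC antibody (the IP) and compared with genomic input. The Pol2 IP was hybridised to 4 arrays for wild type (Pol2-13MYC; arrays 039, 086, 136 and 230), 6 arrays labelled rrm3 delete (Pol2-13MYC with RRM3 deleted; arrays 040, 137, 182, 183, 239 and 240) and 5 arrays of the Rrm3 IP (Rrm3-13MYC; arrays 031, 041, 088, 184 and 185). Controls without a tag were not analysed here. In a growing culture only a share of the cells replicates DNA, so each value averages over the cell cycle. The submitters state that a dye swap was a technical replicate, and the labels do not tie arrays to extracts. The p-values here therefore describe array-to-array spread, part of which may be technical.

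The unit throughout is the log2 ratio of IP over input, centred so that the median of all features on an array is 0. Errors are standard errors (SE) from a limma fit over all 15 grouped arrays, n counts the arrays with a value for the region, and "higher" or "lower" means an adjusted p under 0.05 against the array median. Of the 1258 regions, 1154 had values on 3 or more arrays in each group and were tested, together with 12380 features in all. Between 577 and 1232 divergent regions were measured per array, with the fewest on array 182 (46.0% of spots free of a quality flag) and array 136 (50.4%), and 220 were measured on all 15. The gene order of the R64 reference put the named ORFs side by side for 1047 regions and placed another gene between them for 123, of which 59 held a tRNA gene. For 87 a flanking ORF was not in the reference table, and in IYOR068C the named ORFs were not side by side. No coordinates or sequences are given, because the genome build of the array is not stated.

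Several arrays stood apart from their labels or from each other. The RRM3 feature, which checks the deletion, had an input signal between the 1.61 and 12.1 percentile on 5 of the 6 arrays labelled rrm3 delete, but at the 50.1 percentile on array 239. Wild-type arrays had it at 32.8 to 90.4 and Rrm3 IP arrays at 32.2 to 94.8. For this reason the group is named by its label, and "deletion arrays" is short for the arrays so labelled. The ratio of array 136 was read in the direction of the deposited table, since in its labelled direction it correlated with the other arrays at -0.54 to -0.15 across features. The extraction text of array 086 also names an antibody to a histone mark, and arrays 031 and 041 had another spot layout. Across divergent regions, the median correlation between 2 arrays was 0.31 in wild type, 0.45 on arrays labelled rrm3 delete, 0.16 in the Rrm3 IP and 0.22 between groups. The values of divergent regions on array 031 had an SD of 1.04, against 0.41 to 0.81 on the other grouped arrays.

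As a class, divergent regions lay slightly below the array median in all 3 IPs, and the gap to convergent regions was widest in the Rrm3 IP. The median fitted value of divergent regions was -0.036 in wild type, -0.084 on arrays labelled rrm3 delete and -0.13 in the Rrm3 IP. Convergent regions had medians of 0.069, 0.048 and 0.21, and tandem regions -0.025, -0.076 and -0.025. Of the 1154 divergent regions, 192 (16.6%) were lower in the Rrm3 IP and 65 (5.63%) were higher, against 12.7% lower and 11% higher over all features tested. Convergent regions showed the opposite balance there, with 58 lower (4.88%) and 222 higher (18.7%), and tandem regions lay between, with 269 lower (11.8%) and 206 higher (9.04%).

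The order of the classes was then read on each array. The median of divergent regions was below 0 on all 15 grouped arrays, from -0.19 to -0.028. Its values in the Rrm3 IP were -0.10 on array 031, -0.095 on 041, -0.19 on 088, -0.082 on 184 and -0.10 on 185. All 5 values lay below the convergent medians of the same arrays, by 0.21 to 0.52 with a mean difference of -0.32 ± 0.12 (SD, n = 5). On arrays labelled rrm3 delete the divergent median was the lower one on 6 of 6 arrays, by a mean of -0.11 ± 0.091 (SD, n = 6), and in wild type on 3 of 4, by -0.069 ± 0.076 (SD, n = 4), the exception being array 086 (0.0098). Tandem regions lay closer. Divergent minus tandem medians averaged -0.0014 ± 0.030 (SD, n = 4) in wild type, below 0 on 2 arrays. The mean was -0.0032 ± 0.021 (SD, n = 6) on arrays labelled rrm3 delete, below 0 on 4. In the Rrm3 IP it was -0.092 ± 0.066 (SD, n = 5), below 0 on 4. In both Pol2 IPs divergent regions thus lay near the tandem level.

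The gap between the classes moved with the dye. Within the Rrm3 IP it was -0.33 to -0.21 on the 3 arrays with the IP in Cy5 and -0.52 to -0.30 on the 2 with the IP in Cy3. For the deletion arrays it was -0.074 to -0.001 on the Cy5 arrays and -0.22 to -0.090 on the Cy3 arrays, so the Pol2 gap was close to 0 on some Cy5 arrays. The direction in the Rrm3 IP was the same in both orientations.

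**Figure D1:**
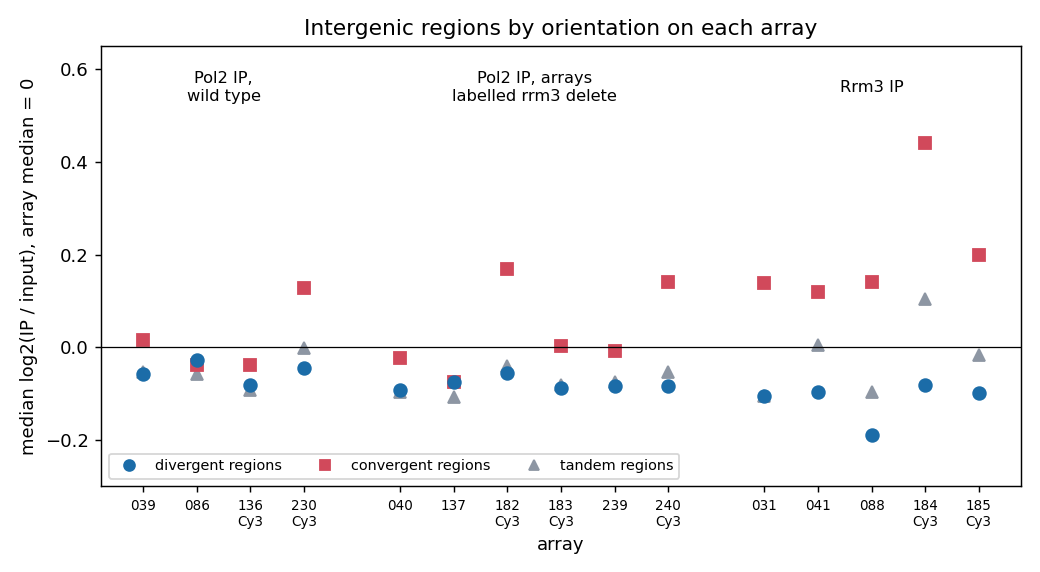
Median log2 ratio of IP over input of divergent (circles), convergent (squares) and tandem regions (triangles) on each of the 15 grouped arrays, with the array median at 0; "Cy3" marks arrays read with the IP in Cy3. The 5 divergent medians of the Rrm3 IP lie between -0.19 and -0.082, all below the convergent ones.

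**Figure D2:**
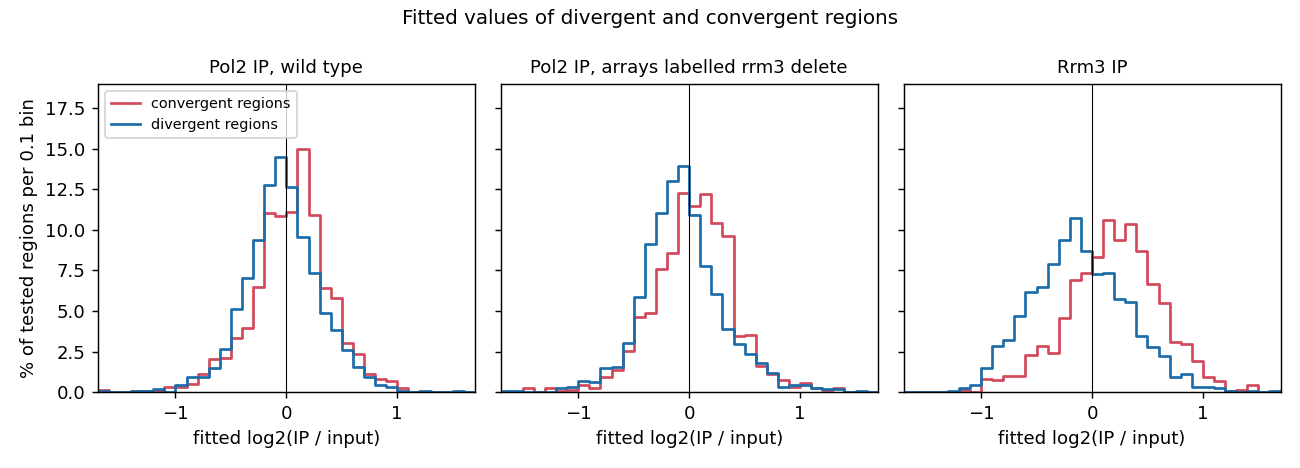
Share of tested divergent (1154) and convergent (1188) regions in bins of the fitted log2 ratio, for each IP. The divergent curve of the Rrm3 IP is shifted to lower values (medians -0.13 and 0.21), and the shift is smaller in the Pol2 IPs (-0.036 and 0.069, -0.084 and 0.048).

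Spot brightness moved with these values. Divergent spots had a median brightness of 10.21 (mean log2 of both channels), against 9.84 for convergent and 10.11 for tandem spots, and across divergent regions the Rrm3 value correlated with brightness at -0.39 (n = 1154 regions that share arrays, a description only). When all tested features were split into 4 equal sets by brightness, the Rrm3 medians of divergent regions ran from 0.19 in the dimmest set through -0.081 and -0.19 to -0.28 in the brightest. Convergent regions had 0.35, 0.19, 0.11 and -0.050 in the same sets. Divergent regions thus had the lower median in all 4 sets, and after loess normalisation against brightness within each array the medians were -0.13 and 0.21. The part of brightness in single calls was not tested.

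**Figure D3:**
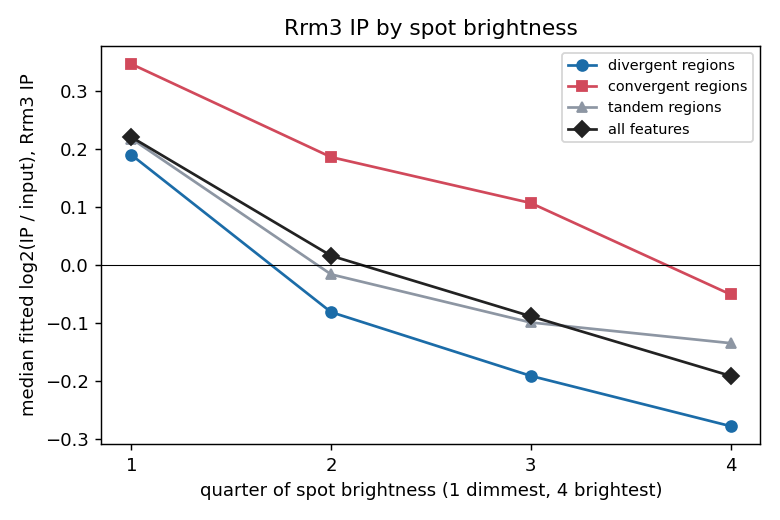
Median fitted log2 ratio in the Rrm3 IP for 4 equal sets of features ordered by spot brightness, by class. All curves fall with brightness, and the divergent curve (0.19 to -0.28) lies below the convergent one (0.35 to -0.050) in all 4 sets.

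In wild type the Pol2 IP asks where polymerase epsilon is found in otherwise normal cells, and few divergent regions stood out. The 10 higher regions (0.867%, against 0.937% of all features) and 18 lower regions (1.56%, against 2.37%) made up shares near the background. All 28 had the same sign on every array that measured them, which calls from the same arrays favour, so this is a description only.

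Among the called regions the highest value was that of IYOL005C, between RPB11, a subunit of RNA polymerase II, and SIN3, of a histone deacetylase complex. It had 0.68, 1.87 and 1.18 on arrays 039, 086 and 230, a fitted value of 1.24 ± 0.29 (n = 3; 2.37-fold; adjusted p = 0.0366). The gene bodies on either side had 0.18 ± 0.20 (RPB11) and 0.41 ± 0.12 (SIN3), neither past the threshold. IYMR275C, between the ubiquitin ligase adaptor gene BUL1 and the ubiquitin receptor gene DSK2, followed at 0.99 ± 0.24 (n = 4). IYDR231C lies between COX20, a cytochrome oxidase assembly factor, and HEM1, which starts heme synthesis, and had 0.95 ± 0.23 (n = 3), with COX20 itself at 0.998 ± 0.23. IYKR006C (MRPL13 and MEH1) had 0.82 ± 0.19 (n = 3) and IYML004C (the glyoxalase gene GLO1 and YML003W) 0.76 ± 0.19 (n = 4). IYML004C went the other way in the Rrm3 IP, where it was lower at -0.51 ± 0.17 (n = 5).

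IYJR045C lies between SSC1, a mitochondrial heat shock chaperone, and TAH11, which loads the replicative helicase at origins. It had 0.90, 0.95, 0.41 and 0.89 on the 4 wild-type arrays, with a fit of 0.79 ± 0.15 (adjusted p = 0.00827). It was also higher in the other IPs, at 0.79 ± 0.13 (n = 6) on arrays labelled rrm3 delete and 0.59 ± 0.14 (n = 5) in the Rrm3 IP.

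Lower regions reached larger sizes. IYGR071C, between ENV11 and the nonsense-mediated decay gene UPF3, had -1.50, -1.36 and -1.94 on arrays 039, 086 and 230 (-1.67 ± 0.23; 0.315 times the array median; adjusted p = 0.00169). IYNL002C lies between RLP7, a ribosome assembly factor, and DOM34, a ribosome rescue factor, and had -1.58, -1.38 and -1.14 (-1.37 ± 0.22; adjusted p = 0.00376). Every measured wild-type array placed these 2 regions more than 1 log2 unit below its median, while none of the 4 flanking gene bodies passed the test. IYKR098C (UBP11, a ubiquitin protease, and BAS1, a regulator of purine synthesis) had -1.17 ± 0.30 (n = 4). IYDR468C (the SNARE gene TLG1 and SDC1, of a histone methylase complex) had -0.95 ± 0.17 (n = 4).

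The arginine permease promoter, IYEL063C (CAN1 and NPR2), had -0.90 ± 0.17 (n = 4) in wild type. IYKR026C (GCN3 and BCH2), which holds a tRNA gene, had -0.96 ± 0.24 (n = 4). These counts rest on single arrays. The number of higher regions was 0 without array 039, 086 or 230, 4 without 136, 5 without 040, 137 or 239, 3 without 240 and 40 without array 031, and the number of lower regions was 2 without 039, 4 without 086 or 230, 9 without 136, 11 without 040 and 55 without 031. With array 136 in its labelled direction, 0 were higher and 2 lower. The shares over all features moved too. They were 0.081% higher and 0.452% lower without array 039. Without 031 they were 3.64% and 5.22%, against 3.47% and 4.77% of divergent regions.

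The Pol2 IP of the RRM3 deletion asks where the polymerase is found when the helicase is missing, and here a subset of divergent regions stood out, those holding a tRNA gene. Over all divergent regions 81 were higher (7.02%, against 9.39% of all features) and 85 lower (7.37%, against 6.95%), which is near the background or below it. Among the 57 tested regions with a tRNA gene between the named ORFs, 28 were higher (49.1%) and 4 lower, with a median of 0.53, whereas 53 of the other 1097 were higher (4.83%), with a median of -0.092. The 1097 include 81 regions with a flanking ORF not in the R64 table, where a tRNA gene could not be looked for, and 8 of these were higher (9.88%). Regions whose ORFs lie side by side had 38 higher of 955 (3.98%).

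Array by array, the median of the tRNA-holding regions was 0.31, 0.48 and 0.62 as the lowest, middle and highest value of the 6 arrays labelled rrm3 delete. In wild type it was -0.10, -0.034, -0.017 and 0.058, so the groups did not overlap. Rrm3 IP arrays had -0.16 on array 031 and 0.14 to 0.23 on the other 4, with 7 of 57 higher (12.3%). The remaining divergent regions had medians of -0.11 to -0.078 on the 6 arrays and -0.083 to -0.026 in wild type. The number of tRNA-holding regions called higher lay between 21 and 34 when any 1 array was left out (22 without array 239) and was 11 with the Cy5 arrays alone.

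**Figure D4:**
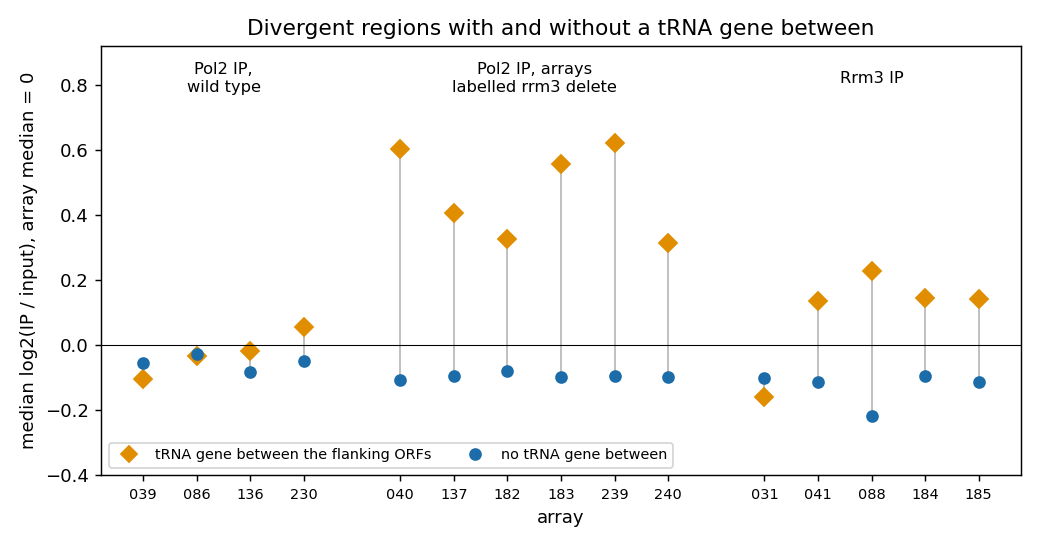
Median log2 ratio of IP over input on each array for divergent regions with a tRNA gene between the named ORFs (diamonds, 59 regions) and for the other divergent regions (circles, 1199 regions). The 1199 include 87 with a flanking ORF not in the R64 table, where a tRNA gene could not be looked for. On the 6 arrays labelled rrm3 delete the diamonds lie between 0.31 and 0.62, above the wild-type arrays (-0.10 to 0.058).

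tRNA genes are transcribed by RNA polymerase III and are known as natural pause sites for forks. Of the 6 highest divergent regions on arrays labelled rrm3 delete with the same sign on every array, 3 hold one. IYOL026C (MIM1, of mitochondrial protein import, and LAG2) ranged from 1.01 to 1.77 with a median of 1.21 on 5 arrays, with a fit of 1.33 ± 0.14 (2.52-fold; adjusted p = 2.73e-05). In wild type it had 0.62, 0.47, 0.68 and 0.70, below all of these. IYDR022C (the autophagy gene ATG31 and the seryl-tRNA synthetase gene SES1) ranged from 0.96 to 1.68 (1.33 ± 0.15, n = 6), and IYNL035C (YNL035C and YNL034W) from 1.03 to 1.62 (1.29 ± 0.17, n = 6). Wild-type values reached 0.78 in IYDR022C and 0.81 in IYNL035C, again below every array labelled rrm3 delete. All 3 regions were picked for high values on those arrays. None of the 3 passed the threshold for the difference from wild type (IYDR022C 0.64, limma adjusted p = 0.73).

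The other 3 hold no tRNA gene. IYML059C had the highest fitted value, 1.52 ± 0.26 (n = 5; 2.86-fold; adjusted p = 0.00112), with 0.87 as its lowest, 1.54 as its median and 1.75 as its highest array. It lies between NTE1, a phospholipase gene, and SML1, an inhibitor of ribonucleotide reductase, and in R64 it also holds HUG1, a small inhibitor of the same enzyme that is known to be induced by DNA damage. The SML1 gene body had 1.69 ± 0.15 and the NTE1 gene body 0.30 ± 0.11. In wild type the region had 0.77, 0.74 and 0.85 on the 3 arrays that measured it, all below the lowest array labelled rrm3 delete. The fitted difference was 0.62 ± 0.43, not past the threshold (limma adjusted p = 0.9997). IYBR241C (VVS1 and YBR242W) had 1.17 ± 0.23 (n = 4), next to a VVS1 gene body at 1.42 ± 0.15. The last of the 6 is IYDR498C, between SEC20 and LCD1, described with the differences below.

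Of the 6 lowest regions named here, 3 were also named in wild type. IYNL002C (RLP7 and DOM34) ranged from -1.87 to -1.04 with a median of -1.71 (-1.60 ± 0.17, n = 5; adjusted p = 2.15e-05), and IYGR071C (ENV11 and UPF3) from -2.03 to -0.90 (-1.53 ± 0.18, n = 5). IYKR098C (UBP11 and BAS1) had -1.10 ± 0.24 (n = 6). The other 3 were IYJR102C (the endosomal sorting gene VPS25 and the CTP synthase gene URA8) at -1.19 ± 0.16 (n = 6), IYLR453C (the telomere protein gene RIF2 and FMP27) at -1.13 ± 0.29 (n = 6) and IYBR086C (IST2 and the clamp loader gene RFC5) at -1.08 ± 0.19 (n = 5). The wild-type values of IYJR102C were -0.68, -0.84, -1.03 and -0.86, overlapping the range of -1.60 to -0.72 on the deletion arrays.

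Of the 81 higher regions 68 were positive on every array that measured them, and 75 of the 85 lower ones were negative on every array. The same arrays gave the calls, so these counts are a description only. A higher region often had a higher neighbour: 45 of 81 (55.6%) had a flanking gene body that was also higher, against 15.7% of all tested divergent regions. The count of higher regions was 49 without array 040 and 51 without array 240, and that of lower regions was 42 without 040, 52 without 137 or 239, 49 without 240 and 166 without array 031, an Rrm3 array that enters the common estimate of spread. The shares over all features moved too. Without 040 they were 6.03% higher and 3.84% lower, against 4.25% and 3.64% of divergent regions. Without 031 they were 14.7% and 11.6%, against 10.1% and 14.4%.

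In the Rrm3 IP, which asks where the helicase itself is found, lower regions outnumbered higher ones by 192 to 65. Of these, 113 were negative and 47 positive on every array, again a description from the arrays that gave the calls. The lowest was IYEL063C, the promoter of the arginine permease gene CAN1, with -1.33, -1.74 and -0.79 on arrays 088, 184 and 185 (-1.23 ± 0.20, n = 3; adjusted p = 0.00145). IYDR415C (YDR415C and the splicing factor gene SYF1) had -1.69, -0.81, -1.48, -0.72 and -1.14 on arrays 031, 041, 088, 184 and 185 (-1.14 ± 0.13; 0.455 times the array median; adjusted p = 0.000251). IYDR415C was well below 0 on all 5 arrays, and its flanking gene bodies had 0.16 ± 0.18 and 0.024 ± 0.16.

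IYGR009C (the SNARE gene SEC9 and NMA2, of NAD synthesis) had -1.84, -0.74, -0.97, -1.05 and -0.91 on the same arrays (-1.09 ± 0.16; adjusted p = 0.000977), while in wild-type Pol2 arrays it had 0.27, -0.23, 0.19 and 0.30. The groups did not overlap, but the region was picked for low Rrm3 values. No divergent region passed the threshold for the difference between these IPs. IYDR151C (CTH1, of mRNA decay, and GIR2) had -1.15 ± 0.23 (n = 5). IYDR310C (SUM1, a repressor of sporulation genes, and TFB1, of a general transcription factor) had -1.13 ± 0.26 (n = 5). IYHR077C (NMD2, of nonsense-mediated decay, and YHR078W) had -1.03 ± 0.20 (n = 4). Single arrays varied widely in IYDR310C, from -2.54 on array 031 to -0.011 on array 184.

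Among higher regions, IYCL037C (the RNA-binding protein gene SRO9 and GFD2) had 2.92, 1.81, 0.15 and 0.027 on arrays 031, 088, 184 and 185, so its fit of 1.23 ± 0.25 (n = 4) averages 2 high arrays and 2 near 0. Both neighbours were also higher, SRO9 at 1.04 ± 0.17 and GFD2 at 0.70 ± 0.15. IYML101C (CUE4 and TSL1, of trehalose synthesis), which in R64 holds a short ORF, had 1.45, 0.035, 1.17, 1.23 and 0.71 (0.92 ± 0.19, n = 5). IYLR076C (YLR076C and FMP25) had 1.03 ± 0.21 (n = 5), IYPR126C (YPR126C and YPR127W) 1.08 ± 0.36 (n = 4), IYIL101C (the repressor gene XBP1 and YIL100W) 0.99 ± 0.23 (n = 4) and IYLR099C (ICT1 and the ergosterol gene ERG27) 0.96 ± 0.33 (n = 5). For 3 of these 4 a flanking ORF is a name not in the R64 table, and IYLR099C holds MIM2.

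The spread of IYLR099C came from array 031, at 3.26 against 0.007 to 0.74 on the other 4. Over the class, the number of higher regions in the Rrm3 IP was 28 without array 184. It was 4 with the Cy5 arrays alone, where 73 regions were lower. Over all features 4.94% were higher without array 184, against 2.43% of divergent regions. With the Cy5 arrays alone 1.37% of all features were higher and 4.32% lower, against 0.363% and 6.62% of divergent regions. A flanking gene body was also lower for 34.9% of the lower regions, against 23.4% of all tested divergent regions.

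The difference between arrays labelled rrm3 delete and wild type asks which regions gain or lose polymerase without the helicase. It was past the threshold for 2 divergent regions, both higher (0.173%, against 0.557% of all features), and for 0 lower ones (against 0% of all features). With limma's unadjusted p under 0.05 there were 38 higher and 9 lower of 1154, against 557 and 118 of all 12380 features. Of those 38, 29 hold a tRNA gene, and 50 of the 57 tRNA-holding regions had a positive difference, with a median of 0.52.

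IYDR498C lies between SEC20, a SNARE of transport to the endoplasmic reticulum, and LCD1, whose product recruits the checkpoint kinase Mec1 to DNA. Its wild-type values were 0.26, 0.15, -0.23 and -0.10, and the arrays labelled rrm3 delete ranged from 0.87 to 1.59 with a median of 1.28. The groups did not overlap, and the difference was 1.25 ± 0.26 (2.37-fold; adjusted p = 0.041 over all features, n = 10). Its neighbours differed by 0.65 ± 0.25 (SEC20) and 0.43 ± 0.45 (LCD1), neither past the threshold. IYDR498C in the Rrm3 IP had -1.02, -0.30, -0.47, -1.37 and 0.27 on arrays 031, 041, 088, 184 and 185.

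IYGL170C, which holds a tRNA gene between SPO74, a sporulation gene, and SUA5, a tRNA modification gene, had -0.26, -0.19, -0.51 and -0.87 in wild type. On the arrays labelled rrm3 delete its lowest value was -0.026, its median 0.69 and its highest 0.97. The difference was 1.05 ± 0.19 (2.07-fold; adjusted p = 0.0191, n = 10), and the groups did not overlap. The count of 2 became 0 without array 039, 086, 230, 137, 183 or 239, 1 without 040, 240 or 041, and 16 without array 031. Shares over all features under these changes are not given here. Neither call is therefore stable to the choice of arrays, although both differences were 0.93 or more under every alternative that measured them.

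The difference between the Rrm3 IP and the wild-type Pol2 IP shares the 4 wild-type arrays with the previous one. Here 0 divergent regions were higher (against 0.00808% of all features) and 0 lower (against 0%). At an unadjusted limma p under 0.05, 34 were higher and 107 lower of 1154, against 561 and 769 of all 12380 features. The median over divergent regions was -0.085, against 0.15 over convergent ones.

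Each region was next compared with its own neighbours, since gene bodies on either side share the local level of IP. Across 1085 divergent regions the value of a region correlated with the mean of its flanking ORFs at 0.44 in wild type, 0.50 on arrays labelled rrm3 delete and 0.26 in the Rrm3 IP, as a description over regions that share arrays. The other classes were alike, with 0.42, 0.49 and 0.27 for convergent and 0.45, 0.50 and 0.27 for tandem regions. Region minus flanking mean was fitted for 4071 regions of all classes, of which 1013 were divergent. In wild type 0 divergent regions were higher than their neighbours (0% of all regions) and 0 lower (0%). At an unadjusted limma p under 0.05 there were 27 and 69 of the 1013, against 116 and 266 of the 4071. For the arrays labelled rrm3 delete, 11 were higher (1.09%, against 0.835%) and 23 lower (2.27%, against 2.16%). The 11 fell to 2 when tRNA-holding regions were left out and to 1 among regions whose ORFs lie side by side. The Rrm3 IP had 51 higher (5.03%, against 7.57%) and 100 lower (9.87%, against 5.45%), where convergent regions had 152 higher and 14 lower.

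On arrays labelled rrm3 delete the region that rose most above its neighbours was IYGR106C (VOA1 and YGR107W), by 1.35 ± 0.14 (n = 5; adjusted p = 0.000552). The region itself had 0.80, while its neighbours had -0.51 and -0.65. IYML041C (VPS71, of a chromatin remodeller, and YML040W) stood 1.003 ± 0.22 above its neighbours, and IYGR109C (the S-phase cyclin gene CLB6 and CLD1) 0.96 ± 0.16. Both hold a tRNA gene, and YGR107W beside IYGR106C is not in the R64 table. Furthest below were IYNL002C (RLP7 and DOM34) at -1.62 ± 0.31, IYPR007C (the meiotic cohesin gene REC8 and HAA1) at -1.47 ± 0.35 and IYKR098C (UBP11 and BAS1) at -1.27 ± 0.24. IYPR007C holds a tRNA gene, and its own level spread from -2.77 to 1.31 between the deletion arrays. It moved with the dye, with -1.94, -2.77 and -2.30 in Cy5 and -0.073, -0.92 and 1.31 in Cy3.

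Furthest above their neighbours in the Rrm3 IP were IYJR031C (GEA1, of vesicle transport, and the cyclophilin gene CPR7) at 1.83 ± 0.33 (n = 4), IYNR031C (the stress kinase gene SSK2 and the phosphatase gene PPG1) at 1.75 ± 0.44 (n = 3) and IYPL119C (the RNA helicase gene DBP1 and MRP51) at 1.42 ± 0.36 (n = 3). These regions varied widely between arrays: IYJR031C had 1.25, 0.33, -0.66 and 2.42 on arrays 031, 041, 088 and 184. IYPL119C itself was not past the threshold, at 0.26 ± 0.28 (n = 4). Its neighbours had -0.53 ± 0.19 (DBP1) and -0.56 ± 0.18 (MRP51). The Pol2 values of IYJR031C and IYNR031C moved with the dye. With the IP read in Cy5, IYNR031C had -0.61 and -0.66 in wild type and -1.63 and -0.56 on the deletion arrays. Read in Cy3 it had 2.16 and 2.27, and 0.72, 1.78 and 2.99. IYJR031C had -0.34, -0.47, -2.18 and -1.20 in Cy5 and 1.65, 1.87 and 1.43 in Cy3. The part of the dye in these calls was not tested. Furthest below were IYGR280C (PXR1 and the transporter gene YOR1) at -1.55 ± 0.35, IYDR120C at -1.46 ± 0.25 and IYLR087C (CSF1 and GAA1) at -1.32 ± 0.29. IYDR120C lies between the tRNA methylase gene TRM1 and DPB4, a subunit of polymerase epsilon, and had -1.51, -0.87, -0.23, -0.77 and -1.23 on arrays 031, 041, 088, 184 and 185. All 5 were below 0, while both gene bodies lay above 0, at 0.38 ± 0.25 and 0.35 ± 0.23, neither past the test.

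Single arrays moved these counts, and the matching shares over all regions are not given here. For the arrays labelled rrm3 delete, the 11 higher became 4 to 7 without array 039, 086, 040, 137, 183, 239 or 240 and 25 without 031, and the 23 lower became 3 to 15 without 086, 230, 040, 137, 183, 239 or 240 and 71 without 031. For the Rrm3 IP, the 51 higher became 17 without array 184 and 32 without 039, and the 100 lower became 25 without 184, 57 without 039, 61 without 086 and 65 without 031 or 240. When the higher of the flanking ORFs was used in place of their mean, 5 regions were higher and 100 lower on arrays labelled rrm3 delete, and 19 higher and 268 lower in the Rrm3 IP.

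The divergent regions were then grouped by the genes they serve, counting each region with at least 1 flanking gene on a list. The shares to read these counts against are those of all divergent regions, 0.867% higher and 1.56% lower in wild type, 7.02% and 7.37% on arrays labelled rrm3 delete, and 5.63% and 16.6% in the Rrm3 IP. Over all features they are 0.937% and 2.37%, 9.39% and 6.95%, and 11% and 12.7%. Beside cytoplasmic ribosomal protein genes, whose promoters are among the most active in growing cells, 0 of 56 tested regions were higher and 1 lower in wild type, and 0 higher and 7 lower (12.5%, against 6.95% of all features) on arrays labelled rrm3 delete, with medians of -0.13 and -0.12. The list's median was below 0 on all 10 Pol2 arrays, as was that of all divergent regions. The Rrm3 IP had 5 higher and 2 lower. The lowest in both Pol2 IPs was IYDR500C (RPL37B and PLM2), at -0.76 ± 0.17 and -0.82 ± 0.14, and the highest in the Rrm3 IP was IYOR095C (RKI1 and RPS7A) at 1.09 ± 0.32.

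Beside mitochondrial ribosomal protein genes 1 of 28 was higher and 0 lower in wild type, 3 higher and 1 lower on arrays labelled rrm3 delete, and 1 higher and 4 lower in the Rrm3 IP (14.3%, near the 12.7% of all features). IYMR023C (MSS1 and MRPL3), which holds a tRNA gene, had 0.69 ± 0.17 on arrays labelled rrm3 delete, and IYKL003C (MRP17 and DID4) had -0.82 ± 0.22 in the Rrm3 IP. Genes of ribosome assembly and of RNA polymerases I and III gave 31 regions, of which 0 were higher and 1 lower in wild type, 2 higher and 5 lower (16.1%, against 6.95% of all features) on the deletion arrays, and 2 higher and 9 lower (29%, against 12.7%) in the Rrm3 IP. Their medians were -0.18, -0.16 and -0.21. CPR1-RPA14 was the highest on arrays labelled rrm3 delete (0.67 ± 0.13), UTP8-SYF2 the highest in the Rrm3 IP (0.68 ± 0.19) and GTF1-NOP7 the lowest there (-0.96 ± 0.17).

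DNA replication and fork protein genes flanked 32 tested regions, with 0 higher and 0 lower in wild type. On arrays labelled rrm3 delete 1 was higher and 2 lower, and the higher one was a region that holds a tRNA gene, IYGR180C, between RNR4, a subunit of ribonucleotide reductase, and TIM13, at 1.06 ± 0.13 (adjusted p = 8.93e-05). For the Rrm3 IP 0 were higher and 7 lower (21.9%, against 12.7% of all features and 16.6% of divergent regions), down to IYDR120C beside DPB4 at -0.92 ± 0.16, and the list's median was below 0 on 5 of 5 arrays, from -0.26 to -0.012, as was that of all divergent regions.

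Meiosis and sporulation genes, which are silent in growing haploid cells, flanked 12 tested regions. They had 0 higher and 1 lower in wild type, 0 higher and 2 lower on arrays labelled rrm3 delete and 0 higher and 6 lower (50%, against 12.7% of all features and 16.6% of divergent regions) in the Rrm3 IP, with medians of -0.30, -0.19 and -0.61. The list's median in the Rrm3 IP lay between -0.82 and -0.47 on the 5 arrays. The lowest there was IYHR013C (ARD1 and SPO13) at -1.02 ± 0.18 and the highest IYOR313C (SPS4 and YOR314W) at 0.06 ± 0.17. The spots of these regions were bright, with a median of 10.69, and the part of brightness in their values was not tested.

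Chaperone genes flanked 8 regions, with 1 higher and 0 lower in each Pol2 IP and 3 higher (37.5%, against 11% of all features) and 0 lower in the Rrm3 IP. SSC1-TAH11 was their highest in all 3 IPs, and YDJ1-MTQ1 their lowest, with -0.64 ± 0.22 in the Rrm3 IP (adjusted p = 0.0502). Of 7 regions at translation factor genes, IYEL035C (UTR5 and HYP2, which encodes a translation elongation factor) was higher in every IP, at 0.68 ± 0.18, 0.54 ± 0.12 and 0.87 ± 0.14, and IYJR047C (ANB1 and CYC1), regulated by oxygen, had -0.51 ± 0.14 on arrays labelled rrm3 delete.

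Proteasome genes flanked 17 regions, with 0 higher and 0 lower in either Pol2 IP and 0 higher and 2 lower in the Rrm3 IP (11.8%, near the 12.7% of all features), the lowest being YTH1-RPN7 at -0.82 ± 0.23. Cell cycle regulators flanked 9. With the deletion label 1 was higher, CLB6-CLD1, which holds a tRNA gene, at 0.54 ± 0.14, and 1 lower. Of the same 9, 0 were higher and 2 lower in the Rrm3 IP, the lowest being SWI4-LSM4 at -0.80 ± 0.16. Glycolysis and fermentation genes flanked 3 tested regions, of which 1 was lower in the Rrm3 IP, YBR144C-ADH5 at -0.57 ± 0.18.

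Core histone genes are arranged as 4 divergent pairs, each with a shared promoter that fires in S phase. None of the 4 promoters differed from the array median in the Pol2 IPs, where HTA2-HTB2 had -0.13 ± 0.22 and -0.22 ± 0.15, HHF1-HHT1 -0.050 ± 0.21 and -0.24 ± 0.15, HTB1-HTA1 0.23 ± 0.24 and -0.077 ± 0.19, and HHT2-HHF2 0.28 ± 0.21 and 0.24 ± 0.15. HHT2-HHF2 was higher in the Rrm3 IP, at 0.25, 1.05, 0.89 and 0.59 on arrays 041, 088, 184 and 185 (0.70 ± 0.18; adjusted p = 0.0143).

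The promoters of the other 3 pairs did not pass in the Rrm3 IP, with HTB1-HTA1 at 0.51 ± 0.19 (adjusted p = 0.0602), HTA2-HTB2 at 0.021 ± 0.17 and HHF1-HHT1 at -0.25 ± 0.19. Their gene bodies included higher ones, HTB1 at 1.05 ± 0.27, HTB2 at 0.88 ± 0.20 and HHF1 at 1.001 ± 0.21. The promoter lay below the mean of its gene bodies by -1.06 ± 0.22 for HHF1-HHT1 (n = 4; adjusted p = 0.0137) and by -0.55 ± 0.14 for HTA2-HTB2 (n = 5; adjusted p = 0.029), and not detectably for HTB1-HTA1 (-0.14 ± 0.22) and HHT2-HHF2 (-0.13 ± 0.22). Histone genes have near-identical copies, so the gene body spots may share signal.

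The GAL10-GAL1 promoter, IYBR019C, is the textbook shared promoter and is repressed in glucose. It stayed near the array median, at -0.051 ± 0.20 (n = 3) in wild type, -0.18 ± 0.15 (n = 5) on arrays labelled rrm3 delete and -0.11 ± 0.17 (n = 4) in the Rrm3 IP, with single arrays between -0.50 and 0.51. Of the galactose genes the other divergent region, IYDR008C (YDR008C and GAL3), was higher on arrays labelled rrm3 delete, at 0.45 ± 0.13 (adjusted p = 0.0286).

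The 3 IPs use separate arrays, but their calls come from the same limma fit and share its dye term and estimate of spread. For regions called in none, in all 3 IPs or in opposite directions, the matching shares over all features were not computed. Those counts are a description only. Across the 3 IPs, 792 of the 1154 tested divergent regions were called in none. In all 3 IPs 3 regions were higher and 9 lower, and 4 were higher in one IP and lower in another. Higher regions of the deletion arrays and of the Rrm3 IP had 20 in common, 24.7% of the former and 30.8% of the latter, against 33.6% and 28.8% over all features. Lower regions had 40 in common, 47.1% of the former and 20.8% of the latter, against 44.3% and 24.1% over all features. By chromosome, medians of the tested regions in wild type ran from -0.17 on chromosome II (71 regions) to 0.16 on chromosome I (10 regions), and in the Rrm3 IP from -0.26 on chromosome II to 0.026 on chromosome X (71 regions).

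**Figure D5:**
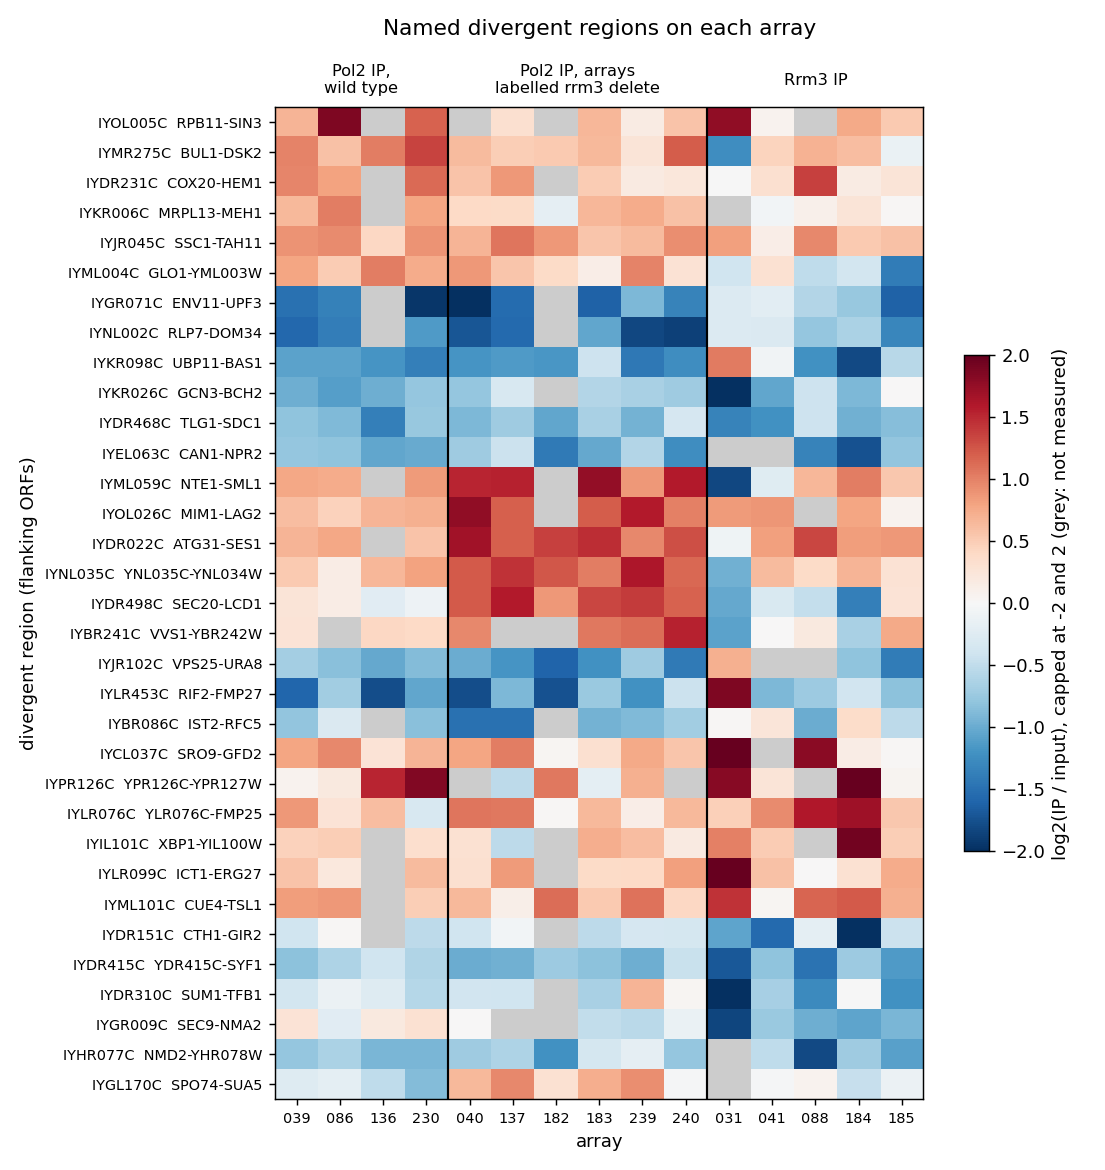
Log2 ratio of IP over input on each grouped array for the divergent regions named by rule as highest or lowest, with the colour scale capped at -2 and 2 and grey for not measured. Regions such as IYNL002C and IYGR071C are blue on every Pol2 array that measured them, IYDR498C is red on the 6 arrays labelled rrm3 delete and near 0 in wild type, and array 031 often has the extreme value of the Rrm3 IP.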

How the data were processed

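The members, gene lists and naming rule were chosen with earlier results of these data known. Each array's file, per the file headers, holds linear spot intensity values as deposited (median foreground, local background and their difference in both channels), a quality flag and a PCR failure code. No source used here names the scanner, its software or a genome build. A second deposited table holds the authors' log2 ratios, whose scale and direction were found by setting each column against the scanner values of its array (absolute correlation 0.999 or more). The medians of its columns lay between -0.05 and 0.09, except -0.46 for array 031, and how the authors centred it stays unknown.

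From the scanner values, log2 of IP over input was computed from background-subtracted medians of unflagged spots above 0 in both channels. Spots of a name were averaged, and each array was centred on its median. limma 3.58.1 (R 4.3.3) fitted group means, plus a term for the dye, to 15 arrays, with empirical Bayes moderation. Every adjusted p in the text is limma's, two-sided, with Benjamini-Hochberg adjustment over 12380 features or, for a region minus the mean of its flanking ORFs, over 4071 regions. The number of arrays limits the precision. The procedure was tested on simulated data.

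Named regions were the 6 highest and 6 lowest past the threshold with 1 sign on every measured array of a group, up to 5 each way for a difference, 3 each way for region minus flanks, the histone and GAL10-GAL1 promoters, and each list's highest and lowest member. Symbols and gene order come from the R64 table of RefSeq. The alternatives covered background correction, normalisation, spot filters, the dye, the direction of array 136, the variance model, membership and each array left out in turn. Leaving out regions with a tRNA gene was added after seeing the data. The promoter motif search was not run. Array 231, whose labels disagree, entered no group.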

Additional observations from a re-analysis of the deposited data

Results flagged for a closer look

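Among 100 sets of 4 to 6 arrays examined, 11 (11%) had a stray array, where chance gives about 1 in 20. Of the Rrm3 arrays, 088 had the lowest median over divergent regions, -0.19. Array 031 stood apart in 4 regions of the Rrm3 IP, with -0.97 in IYNL035C (YNL035C and YNL034W), 1.87 in IYLR453C (RIF2 and FMP27), 3.26 in IYLR099C (ICT1 and ERG27) and -1.84 in IYGR009C (SEC9 and NMA2). Other stray values of the Rrm3 IP were 1.37 on array 088 in IYDR231C (COX20 and HEM1) and 0.072 on array 185 in IYOL026C (MIM1 and LAG2).

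In wild type array 136 had 0.41 in IYJR045C (SSC1 and TAH11), below the other 3 arrays. Among the deletion arrays, array 183 had -0.42 in IYKR098C (UBP11 and BAS1), array 239 had 0.87 in IYML059C (NTE1 and SML1) and array 182 had -0.68 in IYBL003C (HTA2 and HTB2). The 2 regions whose value differed between the Pol2 groups were IYDR498C (SEC20 and LCD1), by 1.25, and IYGL170C (SPO74 and SUA5), by 1.05.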

How the results depend on the processing

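Across 30 alternatives, the median of divergent regions stayed below that of convergent regions in each IP. The share of lower divergent regions exceeded that of all features in 30 of 30 in the Rrm3 IP, on the deletion arrays in 23 of 30 and in wild type in only 1 of 30. The 65 results on named regions gave 1910 comparisons with an alternative. Of these, 1687 stayed on the same side of the threshold, 220 lost the call, 3 gained it and 0 calls reversed. Results without a call could change sign, as IYBR019C in wild type did (-0.23 to 0.22). The call was lost under at least 1 alternative for 40 of the 65, most often for the IYDR498C difference (17 of 30) and for IYKR026C in wild type (16 of 28). The 25 that lost no call include the results at histone and GAL10-GAL1 promoters that had no call to lose. Most of the results that began with a call therefore lost it somewhere. Where calls changed, the cause was not tested, and fewer arrays leave less power. No paired analysis was possible because the labels give the groups no shared replicate numbers.

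In wild type, the 10 higher and 18 lower regions became 17 and 32 without background subtraction, 1 and 8 with normexp, 21 and 30 without dim spots, 0 and 0 with Cy5 arrays alone, 0 and 2 with array 136 as labelled, 4 and 9 without arrays 136 and 182, and 41 and 58 without 031 and 041. Loess gave 16 higher. The shares over all features moved too. They were 0.532% higher and 1.62% lower with normexp, against 0.0866% and 0.693% of divergent regions. Without 031 and 041 they were 4.05% and 5.85%, against 3.6% and 5.09%. Leaving out 1 array gave 0 to 40 higher, 2 to 55 lower and a median of -0.058 to -0.017.

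On arrays labelled rrm3 delete, the 81 higher and 85 lower became 18 and 15 with Cy5 arrays alone, with 11 tRNA-holding regions higher. There were 172 lower without 031 and 041, 38 higher with side-by-side ORFs only and 53 higher without tRNA-holding regions. With Cy5 arrays alone 2.96% of all features were higher and 2.09% lower, against 1.63% and 1.36% of divergent regions. Without 031 and 041, 12.3% of all features were lower, against 15.1% of divergent regions. The median was -0.064 without background subtraction, -0.068 without the flag filter and -0.071 without failed PCR products. Leaving out 1 array gave 49 to 116 higher, 42 to 166 lower and a median of -0.090 to -0.071.

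In the Rrm3 IP, the 65 higher and 192 lower became 4 and 73 with Cy5 arrays alone, 40 were higher with side-by-side ORFs only, and the median was -0.18 with normexp. Leaving out 1 array gave 28 to 85 higher. With Cy5 arrays alone 1.37% of all features were higher and 4.32% lower.

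For the deletion arrays minus wild type, the 2 higher became 0 with normexp, without the dye term, with Cy5 arrays alone or without 136 and 182, 4 without dim spots, 14 without 031 and 041, and 1 with array 136 as labelled, with side-by-side ORFs only or without tRNA-holding regions. The median was -0.070 with array 136 as labelled. Leaving out 1 array gave 0 to 16. Shares over all features for this difference under the alternatives are not given here.

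For region minus flanks in wild type, 3 were lower without background subtraction, 4 without dim spots, 4 without 031 and 041, 7 against the higher flanking ORF, and 0 to 2 with 1 array left out. On the deletion arrays, the 11 higher became 7 with normexp, 18 without dim spots, 7 without the dye term, 0 with Cy5 arrays alone, 27 without 031 and 041, 1 with side-by-side ORFs only, 2 without tRNA-holding regions, 5 against the higher flanking ORF and 4 to 25 with 1 array left out. The 23 lower became 14 without failed PCR products, 15 without the dye term, 0 with Cy5 arrays alone, 74 without 031 and 041, 100 against the higher flanking ORF and 3 to 71 with 1 array left out. For the Rrm3 IP, the 51 higher and 100 lower became 30 and 48 without the flag filter, 29 and 65 without dim spots, 33 and 59 without the dye term, 1 and 14 with Cy5 arrays alone, 33 and 65 without 031 and 041, and 19 and 268 against the higher flanking ORF. There were 65 lower without failed PCR products. Leaving out 1 array gave 17 to 75 higher and 25 to 112 lower. Shares over all regions under these alternatives are not given here.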

Other observations

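Divergent regions with a snoRNA gene between the named ORFs (9 tested) had medians of 0.11 in wild type, 0.048 on arrays labelled rrm3 delete and 0.44 in the Rrm3 IP, where 3 were higher (33.3%, against 11% of all features and 5.63% of divergent regions) and 0 lower. Their median on single Rrm3 arrays ran from 0.13 to 0.76.

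Array 231 has labels that disagree on whether RRM3 was deleted, and its values are given without a group. Its median was -0.057 over divergent and 0.023 over convergent regions. Regions with a tRNA gene between the named ORFs had a median of -0.19 (59 regions), and the other divergent regions -0.047 (1169 regions). The median beside meiosis and sporulation genes was -0.89 (13 regions). Array 231 had 0.23 in IYDR498C, -0.55 in IYGL170C, -1.55 in IYNL002C and -1.85 in IYGR071C.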
